A study of Mus musculus with 5 samples.

Results

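A set of 10 genes of the WNT pathway were followed by symbol in cultured mouse marrow cells with and without Bmal1: the secreted modulators Dkk3, Sfrp1, Sfrp2, Rspo2, Rspo3, Wisp1 and Wisp2, and, for contrast, β-catenin (Ctnnb1), the co-receptor Lrp6 and the pathway's own target Axin2. The tables list 14161 genes in any library, 9 of the 10 among them. The cells, labelled bone mesenchymal stem cells, were grown from femur marrow of C57BL/6 mice 6 to 8 weeks old, in α-MEM with 12% serum, and were used at passages 1 to 3. There were 3 Bmal1-knockout libraries and 2 wild type libraries of the same strain. Bmal1 (gene symbol Arntl) encodes the partner of CLOCK in the circadian transcription factor. The series asked which genes BMAL1 regulates in these cells. The labels describe neither the allele nor whether the libraries came from separate animals or cultures, so p-values measure the spread between these libraries, which may be technical.

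As background, WNT proteins are secreted ligands that bind a Frizzled receptor and LRP5 or LRP6 on the receiving cell. Binding halts the complex of Axin, APC, GSK3 and CK1 that marks β-catenin for destruction, and the stabilised protein then switches on genes through TCF/LEF factors in the nucleus. Several secreted proteins tune this step from outside. SFRPs carry a Frizzled-like domain that binds WNT ligands, some DKK proteins block LRP6 (a role not established for DKK3), and R-spondins bind LGR receptors and so keep Frizzled at the cell surface. In bone marrow the pathway is known for steering stromal progenitors towards osteoblasts.

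The libraries held 211623 to 281990 expected counts, which left the members with 0 to 80 reads per library. Levels are in CPM, counts scaled to a common total of the tested genes (TMM). A gene with no read could still lie at 12.1 to 15.9 CPM, depending on the library (3 counts, for counting error alone). Arntl, the targeted gene, had 4, 1 and 2 knockout counts and 5 and 0 wild type counts, which does not separate the genotypes or check the labels. Of 18 stromal identity genes 17 were listed and 8 tested, Prrx1, Cdh11 and Pdgfra among them. Others, such as Thy1, Nt5e, Eng and Lepr, were too low to test. The list summed to 1004 to 1141 CPM in the knockout and 723 to 785 CPM in the wild type libraries. That was far below the macrophage genes in every library. Macrophage genes were present too: all 20 of a fixed list were listed and tested, and 11 were called lower in the knockout and none higher. Among all 3710 tested genes, 8.14% were called lower and 8.19% higher. The macrophage genes summed to 11514 to 12799 CPM in the knockout against 18714 to 19380 in the wild type libraries. In bulk RNA, fewer cells of a type and less RNA per cell cannot be told apart.

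Among the secreted modulators, Dkk3, Sfrp1, Rspo2 and Wisp2 rose in the knockout libraries by 2.54-fold to 4.17-fold, and no member fell. Wisp1 did not pass the test, Sfrp2 and Rspo3 were too low for it, and so was Lrp6. Ctnnb1, measured on more reads than any other member, did not pass. Axin2 was not listed in any of the 5 libraries and was taken as 0 counts. Of the 6 members that passed the filter on low counts, 4 were called higher (edgeR, Benjamini-Hochberg adjusted p under 0.05), where 8.19% of the 3710 tested genes were called higher and 8.14% lower. The same 4 had every knockout library above both wild type libraries, an arrangement shown by 21.2% of tested genes. The median log2 fold change was 1.57 over the 6 members and 0.01 over all tested genes. The members were chosen with these results known, and some reached the filter through their knockout counts, so these shares are a description of the 6.

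**Figure D1:**
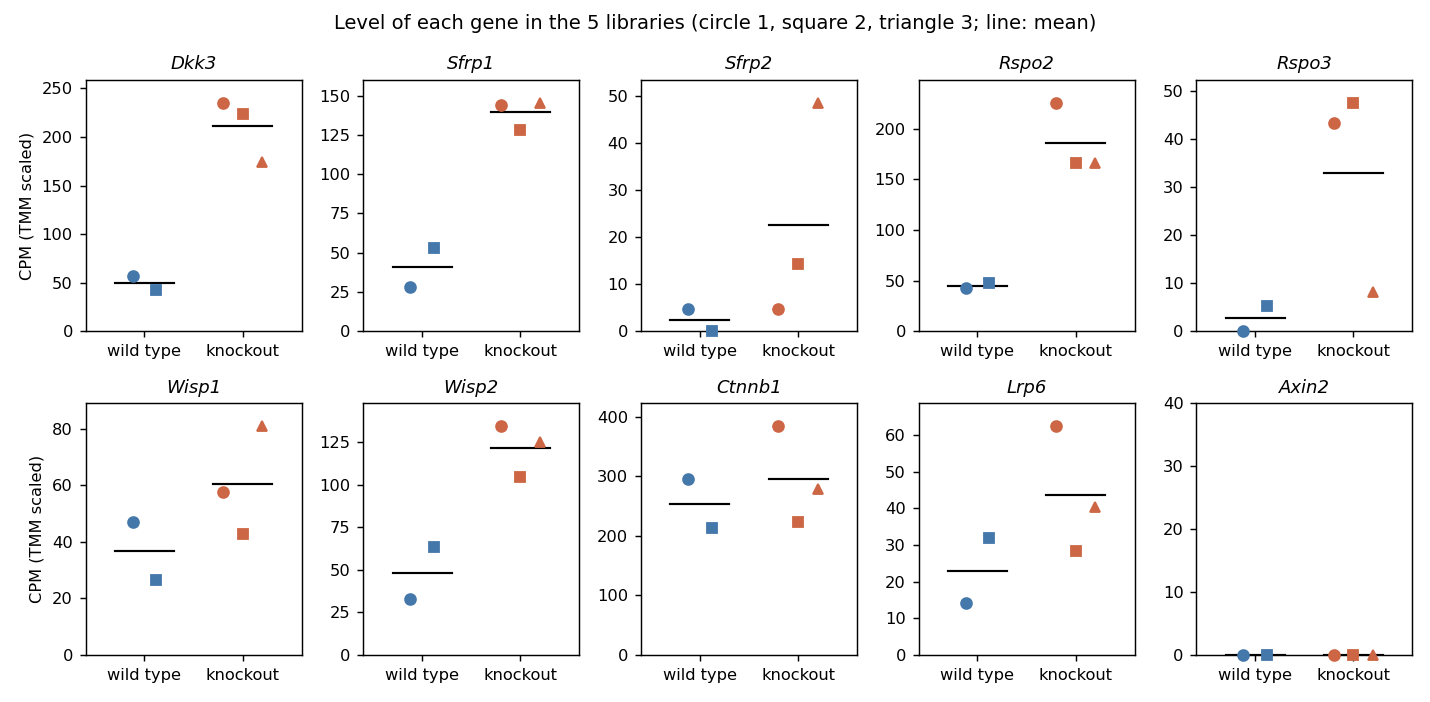
Level of the 10 genes in each library, in CPM scaled by TMM, wild type in blue and knockout in orange, with circles, squares and triangles for libraries 1, 2 and 3 and a line at the group mean; each panel has its own linear axis from 0. Dkk3, Sfrp1, Rspo2 and Wisp2 show separate groups, and Wisp1, Ctnnb1 and Lrp6 overlap. Axin2, which was not listed, is drawn at 0 throughout.

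Dkk3 (Entrez gene 50781, chromosome 7, 112116019 to 112159482, mm10) encodes the divergent member of the Dickkopf family, a secreted glycoprotein. Its counts of 49, 47 and 43 (knockout) and 12 and 8 (wild type) correspond to 235, 223 and 174 CPM against 56.4 and 42.5 CPM. Every knockout library lay far above both wild type libraries. The group means were 211 ± 32.6 CPM (SD, n = 3) and 49.4 ± 9.80 (n = 2). The log2 fold change was 2.06 (SE 0.34, 95% interval 1.39 to 2.73, adjusted p = 6.1e-08), and it passed in all 17 alternative settings tried (1.59 to 2.29). Its adjusted p was weaker with DESeq2 (0.000133) and with limma on log2(FPKM + 1) (0.00401). No annotated exon lies opposite the exons of Dkk3.

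Sfrp1 (Entrez gene 20377, chromosome 8, 23411383 to 23449632) encodes a secreted Frizzled-related protein that binds WNT ligands. It had 30, 27 and 36 knockout counts and 6 and 10 wild type counts. The knockout libraries lay close together, at 144, 128 and 146 CPM, and the wild type libraries at 28.2 and 53.1 CPM. The log2 fold change was 1.79 (SE 0.39, interval 1.02 to 2.56, adjusted p = 0.00012). Without wild type 1, the lower of the pair, it was 1.38 and did not pass (adjusted p = 0.0511).

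Sfrp2 (Entrez gene 20319, chromosome 3, 83765750 to 83774314), a close relative of Sfrp1, had 1, 3 and 12 knockout counts and 1 and 0 wild type counts. Most of the knockout counts came from knockout 3, and knockout 1 held as many reads as wild type 1. Its summed counts differed by a ratio of 9.64, with an exact 95% interval of 1.5 to 404 that covers counting error alone. The ratio was 3.83 (0.379 to 189) without knockout 3 and 5.12 (0.795 to 215) without wild type 2, and without wild type 1 no wild type count remains. Exons of Sfrp2 share 347 bases with the opposite strand's Gm26771, and no source used here says whether reads were counted by strand. In a fit with a looser filter, 10 counts in total, Sfrp2 did not pass (adjusted p = 0.114).

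The reference tables hold promoter windows for 3 of the 10 genes. The 250 bases before an annotated transcript start (83766321 for Sfrp2, 108920349 for Axin2) are shown; both starts lie inside the RefSeq gene spans given here, which begin further upstream. These genes are shown as the secreted modulator and the target gene among them, because the deleted factor binds E-boxes and TCF/LEF factors act on WNT targets. Both strands were searched for the E-box CACGTG and the TCF/LEF core CTTTGA, which cannot share bases; a match would be in capitals. The sequences are from RefSeq (GRCm38.p6, plus strand, chr3:83766071-83766320 and chr11:108920099-108920348).
Sfrp2: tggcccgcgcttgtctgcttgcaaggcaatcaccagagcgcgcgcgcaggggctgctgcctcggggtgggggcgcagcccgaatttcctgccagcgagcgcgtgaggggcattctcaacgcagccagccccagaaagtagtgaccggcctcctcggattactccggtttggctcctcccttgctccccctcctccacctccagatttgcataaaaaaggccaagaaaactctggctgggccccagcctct
Axin2: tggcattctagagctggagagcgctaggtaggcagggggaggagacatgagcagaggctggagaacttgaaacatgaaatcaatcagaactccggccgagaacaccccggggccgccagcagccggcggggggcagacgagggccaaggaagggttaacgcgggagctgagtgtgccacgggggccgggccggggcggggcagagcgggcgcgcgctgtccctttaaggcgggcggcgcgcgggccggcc

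Neither window holds either motif, and neither do the same 250 bases before the 2 annotated starts of Ctnnb1. Among all 32851 windows of this length, 6.02% hold CACGTG and 13.8% hold CTTTGA. The absence says only that these letters are not in these windows.

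The R-spondins work in the other direction from SFRPs and enhance WNT signals. Rspo2 (Entrez gene 239405, chromosome 15, 43020788 to 43171594) had 47, 35 and 41 knockout counts and 9 and 9 wild type counts. Its levels were 226, 166 and 166 CPM against 42.3 and 47.8 CPM, with a wide gap between the groups. The log2 fold change was 2.03 (SE 0.36, interval 1.33 to 2.73, adjusted p = 5.7e-07), and it passed in all 17 alternatives (1.56 to 2.12). Here too the adjusted p was weaker with DESeq2 (0.000488) and with limma on log2(FPKM + 1) (0.00484).

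Rspo3 (Entrez gene 72780, chromosome 10, 29453106 to 29535867) had 9, 10 and 2 knockout counts and 0 and 1 wild type counts. Knockouts 1 and 2 were high, and knockout 3 was close to the wild type level, whereas knockout 3 was the high library for Sfrp2. Its ratio was 12.7 (2.03 to 523), and 5.94 (0.955 to 245) without wild type 1. It passed in the looser fit (adjusted p = 0.0307 among 8882 genes, of which 3.05% were called higher). Its exons have 404 bases opposite Gm48159. Of the list of 9 R-spondins and their receptors, 6 were listed and Rspo2 was the 1 tested, while Rspo1, Rspo4 and the receptor-removing ligase Rnf43 were at 0. The list summed to 186 to 293 CPM in the knockout and 47.0 to 63.8 CPM in the wild type.

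Wisp1 and Wisp2, named CCN4 and CCN5 in newer annotation, belong to the CCN family of matricellular proteins and were named as WNT-induced genes. Wisp2 (Entrez gene 22403, chromosome 2, 163820752 to 163833146) had 28, 22 and 31 knockout counts and 7 and 12 wild type counts. The levels were 135, 105 and 125 CPM against 32.9 and 63.8 CPM, with no overlap. The log2 fold change was 1.34 (SE 0.39, interval 0.58 to 2.11, adjusted p = 0.0063). The call was lost without wild type 1 (0.93, adjusted p = 0.249) and with DESeq2 (1.34, adjusted p = 0.0736).

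Wisp1 (Entrez gene 22402, chromosome 15, 66891369 to 66923201) had 12, 9 and 20 knockout counts and 10 and 5 wild type counts. Knockout 2 lay below wild type 1, so the groups overlapped. The log2 fold change was 0.71 (SE 0.46, interval -0.20 to 1.62, adjusted p = 0.324), an interval that includes the value of Wisp2, and the difference between Wisp1 and Wisp2 was not tested. Of the 6 CCN genes all were listed and 4 tested. Of these, 3 rose, the member Wisp2 among them, and none fell. The shares over all tested genes were 8.19% called higher and 8.14% lower. The other two that rose were Cyr61 (1.2, adjusted p = 0.00323) and Ctgf (0.68, adjusted p = 0.00279), growth factors of the matrix that are known targets of YAP and TGF-β signals. Ctgf lost its call without wild type 1 (0.69, adjusted p = 0.0667) or wild type 2 (0.67, adjusted p = 0.0576). Cyr61 lost it without knockout 1 (0.95, adjusted p = 0.063) or wild type 2 (1.15, adjusted p = 0.0568). Exons of Ctgf have 665 bases opposite Gm15270.

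Ctnnb1 (Entrez gene 12387, chromosome 9, 120933400 to 120960507), the transducer of the signal, had 80, 47 and 69 knockout counts and 63 and 40 wild type counts. The groups overlapped, at 296 ± 81.7 CPM (SD, n = 3) in the knockout and 254 ± 59.0 CPM (n = 2) in the wild type. The log2 fold change of Ctnnb1 was 0.20 (SE 0.21, edgeR adjusted p = 0.585) with a 95% interval of -0.22 to 0.62. The upper end lies below the lower ends for Dkk3, Sfrp1 and Rspo2, but above that for Wisp2 (0.58). Its sign turned without knockout 1 (-0.017) and without wild type 2 (-0.0051). Exons of Ctnnb1 have 759 bases opposite Ulk4.

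Lrp6 (Entrez gene 16974, chromosome 6, 134446476 to 134566913), the WNT co-receptor, had 13, 6 and 10 knockout counts and 3 and 6 wild type counts. Knockout 2 and wild type 2 held equal counts. The ratio of 1.94 had an interval of 0.895 to 4.66, which includes no change and also the fold of Wisp2. The lower bound passed 1 by little without knockout 2 (2.25, 1.003 to 5.53), and the ratio was 3.09 (0.958 to 15.9) without wild type 2. A difference in Lrp6 was thus not detected at this depth over all 5 libraries.

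Axin2 (Entrez gene 12006, chromosome 11, 108917828 to 108950783), a negative regulator that β-catenin and TCF induce and a common readout of the pathway, was taken as 0 counts in every library. It was listed in none of them. If that means no read, its level could be up to 4.51 CPM over the 3 knockout libraries. Over the 2 wild type libraries it could be up to 7.48 CPM (3 counts of each group's scaled total). No direction can be given for it. Of the list of 14 target genes, 8 were listed and 1 was tested, Ccnd1, cyclin D1, at 0.40 (interval -0.079 to 0.88, adjusted p = 0.284; below 0 on the stromal scale given later). Exons of Ccnd1 have 1100 bases opposite another gene. The target list summed to 247 to 394 CPM in the knockout and 218 to 268 CPM in the wild type.

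The contrast between the secreted modulators and the core was measured inside each library, where no scaling between libraries enters. Dkk3 counts came to 61.2%, 100% and 62.3% of Ctnnb1 counts in the knockout and to 19.0% and 20% in the wild type libraries. For Rspo2 the shares were 58.8%, 74.5% and 59.4% against 14.3% and 22.5%. Dkk3, Sfrp1, Rspo2 and Wisp2 had every knockout ratio above both wild type ratios, while Wisp1 did not. The mean log2 ratio to Ctnnb1 differed by 1.89 for Dkk3, 1.65 for Sfrp1, 1.83 for Rspo2, 1.2 for Wisp2 and 0.52 for Wisp1. In two-sided exact permutation tests of these 5 ratios the first 4 had p = 0.2, the smallest that 3 against 2 libraries allow (0.25 after Benjamini-Hochberg adjustment over the 5), and Wisp1 had p = 0.4. The design thus cannot reach 0.05 in this test. Relative to Lrp6 the differences were smaller, 1.12 for Dkk3, 0.87 for Sfrp1, 1.06 for Rspo2 and 0.43 for Wisp2, and Wisp1 was at -0.25. There the groups overlapped for Dkk3 and Wisp2 (exact permutation p = 0.4 each) as well as Wisp1, and were apart for Sfrp1 and Rspo2 (p = 0.2 each; 0.5 for these 4 after adjustment). Without wild type 1 the difference in the ratio to Ctnnb1 was 0.48 for Wisp2 and 0.95 for Sfrp1.

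**Figure D2:**
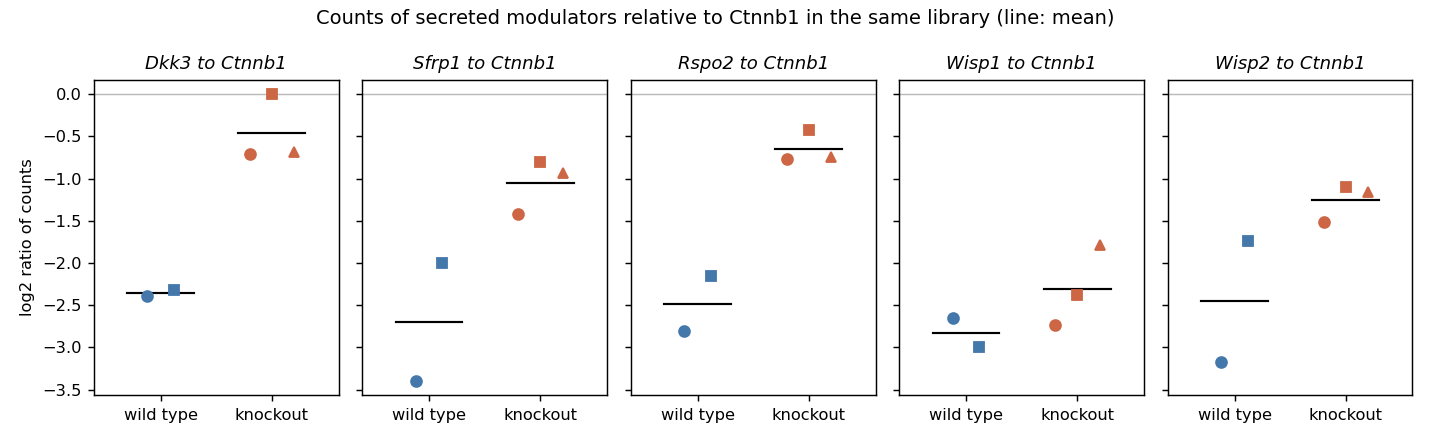
log2 ratio of the counts of each tested secreted modulator to those of Ctnnb1 in the same library, with wild type in blue, knockout in orange, symbols by library number, a line at the group mean and a grey line at equal counts. Knockout 2 has as many Dkk3 as Ctnnb1 counts, and Wisp1 is the panel where the groups overlap.

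Levels can be set side by side between genes only per length. On the authors' FPKM scale, which divides by gene length, Ctnnb1 led in both groups with 60.1 ± 19.1 FPKM (SD, n = 3) in the knockout and 51.1 ± 11.2 (n = 2) in the wild type libraries. In the knockout it was followed by Wisp2 at 50.9 ± 7.59, Dkk3 at 44.7 ± 8.59, Rspo2 at 39.0 ± 7.59 and Sfrp1 at 22.6 ± 1.88 FPKM, and from Ctnnb1 to Rspo2 neighbours in this order differed by less than the larger SD of the pair, while Sfrp1 lay further below Rspo2. Rspo3 at 10.1 ± 6.67, Wisp1 at 8.53 ± 2.56, Sfrp2 at 8.17 ± 8.21 and Lrp6 at 3.30 ± 1.41 FPKM came next, above Axin2 at 0, and the first 3 of these did not differ beyond their spread. In the wild type libraries Wisp2 was at 20.7 ± 9.60, Dkk3 at 10.8 ± 2.02, Rspo2 at 9.93 ± 0.983, Sfrp1 at 6.77 ± 3.01 and Wisp1 at 5.32 ± 2.04 FPKM. Lrp6 at 1.77, Sfrp2 at 0.88 and Rspo3 at 0.83 FPKM followed, again above Axin2 at 0. The estimated length behind these values varied between libraries by up to 5.51% for Rspo2, 3.27% for Ctnnb1 and 2.27% for Dkk3. The tables count transcripts outside RefSeq for Dkk3, Rspo2, Wisp1 and Lrp6.

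Among the other secreted antagonists, Sfrp4, picked here after its values were seen, was the most abundant by FPKM, at 93.2 ± 18.0 in the knockout (n = 3) and 114 ± 8.27 in the wild type libraries (n = 2). Its counts were 53, 38 and 57 against 54 and 52, a log2 fold change of -0.25 (interval -0.70 to 0.20, adjusted p = 0.51). That value lay outside the interval of its relative Sfrp1. The antagonist list of 17 genes also holds Dkk3, for which a block of LRP6 is not established, and the membrane proteins Kremen1 and Kremen2. Of the 17, 7 had counts and 3 were tested, and the 2 that rose were Dkk3 and Sfrp1. Both are members, and 8.19% of all tested genes were called higher. Dkk1, Dkk2, Frzb and Sost, the other widely studied antagonists, were taken as 0 in all libraries, with the same limits as for Axin2.

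For a wider view, 105 genes of the pathway were placed in lists by role, chosen with earlier results of these data known. Of these, 78 were listed and 18 tested, and 6 rose and none fell. Over all tested genes 8.19% were called higher and 8.14% lower. The 6 are the 4 members above, Cyr61 and Ctgf. Another list of the pathway, given below, holds genes that fell. Of the 95 genes that are no members, 12 were tested with a median log2 fold change of 0.25. Of 19 WNT ligands 10 had counts and Wnt2b alone was tested, at -0.84 (adjusted p = 0.313) with 5, 11 and 5 knockout counts and 16 and 7 wild type counts. The ligands summed to 76.9 to 110 CPM in the knockout and 90.4 to 103 CPM in the wild type. Wls, which carries WNT ligands to the cell surface, was at 0.09 (adjusted p = 0.888), with a sign that changed without knockout 1 or wild type 2. In the receptor list 14 of 16 were listed and 1 tested, the WNT-binding receptor Ryk, at 0.51 (adjusted p = 0.6). In the cytoplasmic core all 16 were listed, 5 were tested and none passed; Tnks2, a tankyrase that marks Axin for destruction, was at -0.35 (adjusted p = 0.576; 0.13 without wild type 1 and 0.012 without knockout 3). Among nuclear effectors the β-catenin cofactor Bcl9l was the 1 tested, at 1.04 (adjusted p = 0.372). The cytoplasmic core summed to 742 to 894 CPM in the knockout and 723 to 803 CPM in the wild type, and the receptor list to 269 to 276 against 127 to 197 CPM. The 10 Frizzled genes, singled out after their values were seen, had 16, 23 and 30 counts in the knockout against 7 and 8, and each was too low to test alone.

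**Figure D3:**
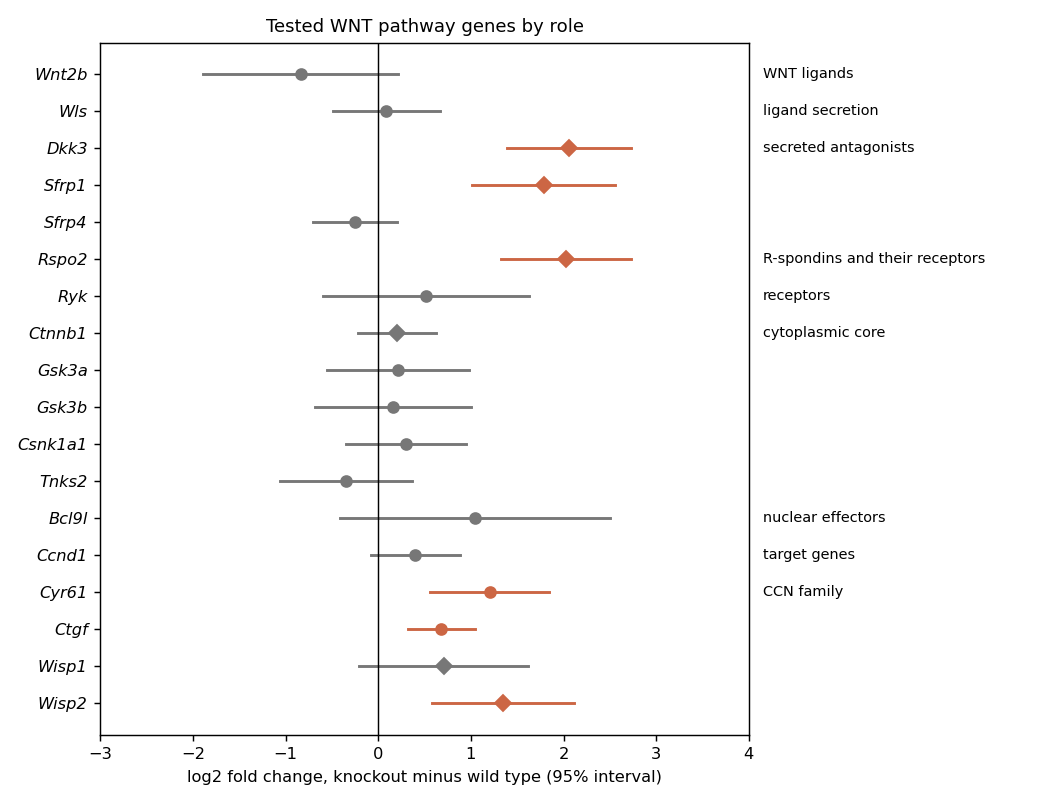
log2 fold change (knockout minus wild type) with its 95% interval for the 18 tested pathway genes, ordered by role; diamonds are members, circles other genes, and orange marks an adjusted p under 0.05. The orange genes are the secreted Dkk3, Sfrp1, Rspo2, Cyr61, Ctgf and Wisp2, and the intervals of the cytoplasmic core all include 0.

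The pathway label in the deposited tables gave another list, used here after its values were known. It marks 160 listed genes as WNT signalling, of which 44 were tested, with a median log2 fold change of 0.02. The 6 called higher were the members Dkk3 and Sfrp1, and Tle6, Ccnd2, Serpinf1 and Prickle3. The 2 called lower were Ep300 and Daam2. Over all tested genes 8.19% were called higher and 8.14% lower. Dkk3, Sfrp1, Sfrp2, Ctnnb1 and Lrp6 carry that label, and Rspo2, Rspo3, Wisp1 and Wisp2 do not.

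Genes of other kinds moved with the genotype in the same libraries. Beside the lower macrophage genes, the 18 stromal identity genes, of which 17 were listed and 8 tested, had 2 that rose and none that fell: Cdh11, a cadherin of mesenchymal cells, at 1.37 and Ddr2, a collagen receptor, at 1.01. Ngfr was the 1 of the list at 0. The list's median log2 fold change was 0.27. Its sum was 1004 to 1141 CPM in the knockout against 723 to 785 CPM in the wild type libraries. Cdh11 and Ddr2 were left out after their calls were seen, which was bound to narrow the gap. Without them the sums overlapped, at 557 to 723 against 516 to 639 CPM. The median of the other 6 tested genes was -0.016, with 3 of them above 0. Of these 6, Vcam1 had every knockout library above both wild type libraries (0.82, edgeR adjusted p = 0.192). Nes had every knockout library below both (-0.18, edgeR adjusted p = 0.832). The immediate-early genes Fos, Egr1 and Junb were lower, as 3 of 4 tested of 8 stress genes, with summed levels of 207 to 266 against 428 to 590 CPM. For these lists too, the shares over all tested genes were 8.19% called higher and 8.14% lower. Endothelial genes summed to 128 to 178 against 165 to 197 CPM, with Vwf at 0. The neutrophil and erythroid lists had 0 tested genes, with Mpo, Elane and the globins at 0. Their sums in the knockout and the wild type were 4.75 to 12.1 and 14.1 to 15.9 CPM for neutrophils and 0 to 4.80 and 0 to 4.70 CPM for erythroid cells. Of the 7 osteoblast genes 5 were listed and 1 tested, Alpl, which was higher, and Bglap and Phex were at 0; they summed to 133 to 138 CPM in the knockout against 32.9 to 47.8 CPM. The part of these shifts in the members' values was not tested, except that the counts were also scaled to the summed stromal identity genes in place of all genes. On that scale, where the median of all genes was -0.47, Dkk3 was at 1.59 (adjusted p = 0.000113), Rspo2 at 1.56 (0.000389) and Sfrp1 at 1.31 (0.00906), and Wisp2 at 0.86 did not pass (0.0997). Ctnnb1 was at -0.27 (0.391), and Sfrp4 at -0.74 was called lower (0.0122). Scaled to the stromal sum without Cdh11 and Ddr2, a setting chosen after seeing the data, Dkk3 was at 1.94 (5.6e-05), Rspo2 at 1.91 (0.000193), Sfrp1 at 1.64 (0.00543), Wisp2 at 1.2 (0.0633) and Ctnnb1 at 0.10 (0.894), with the median of all genes at -0.13. Sfrp4 at -0.39 did not pass (0.461). That smaller sum held 116, 152 and 158 knockout counts and 136 and 97 wild type counts, with the same limit.

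**Figure D4:**
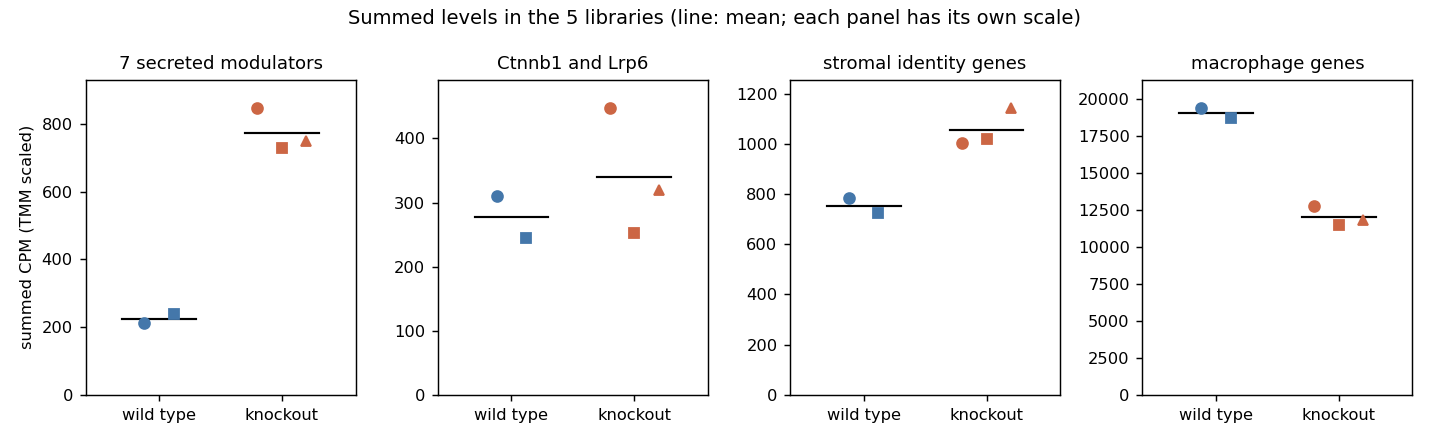
Summed CPM per library of the 7 secreted modulators, of Ctnnb1 and Lrp6, of the stromal identity genes and of the macrophage genes; colours and symbols as in the plot of levels, with lines at group means and a separate linear axis from 0 in each panel. The secreted modulators summed to 727 to 846 CPM in the knockout and 211 to 239 in the wild type libraries, Ctnnb1 and Lrp6 to 252 to 447 and 244 to 310.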

How the data were processed

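RNA-seq of 3 Bmal1-knockout and 2 wild type libraries was analysed from 1 table each. The authors deposited an expected count, an FPKM and a gene length in bases (other columns hold annotation), per the file headers. Per the submitters' processing notes the tools were HISAT2, StringTie, Bowtie2 and RSEM on build mm10; roles and versions are not stated. A gene with no row was taken as 0. Of the deposited expected counts, 93.8% to 94.2% per library were whole within 0.005; they were rounded. The fit used edgeR 4.0.16 in R 4.3.3: filterByExpr (minimum count 10, total 15), TMM, a robust quasi-likelihood test of genotype, and p-values adjusted by Benjamini-Hochberg over all 3710 tested genes. Standard errors come from the quasi-likelihood F. Members under the filter are given as ratios of summed counts with exact intervals. DESeq2 1.42.0, limma 3.58.1 (voom, and log2 FPKM with a pseudocount of 1) and other scalings and filters were alternatives. The fit was tested on simulated data.

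The members and lists were chosen with earlier results of these data known. The named genes are the 10 members, Arntl, and up to 2 genes per pathway list and direction (the 2 smallest p where none passed); others were picked after their values were seen. Positions are from RefSeq GRCm38.p6, and exons on the other strand from GENCODE M21, where overlaps of at least 100 bases were looked for. Beside those given above, such overlaps exist for Axin2 (209 bases), Bcl9l (772), Pdgfra (622) and Junb (173). Other tested genes of the lists with such overlaps are Csf1r (873), Gsk3a (820) and Jun (232). A further list of marker genes is not reported here.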

Additional observations from a re-analysis of the deposited data

How the results depend on the processing

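In 16 of 17 alternatives the count of members called higher stayed within 1.5 times the 4 reported, and none was called lower in any; with a library left out it ranged from 2 to 4, the 2 being Dkk3 and Rspo2 without wild type 1. Pathway genes called higher ranged from 3 to 6 with a library left out. Scaled to the stromal identity genes, 3 pathway genes were higher and 1, Sfrp4, lower (-0.74), and over all genes 96 were higher and 996 lower, since that scale moves the median of all genes; without Cdh11 and Ddr2 in the sum (chosen after seeing the data) 124 genes were higher, Wls was at -0.031 and Ctgf lost its call (0.54). All genes called higher and lower were 149 and 131 with DESeq2, 171 and 171 with limma on log2(FPKM + 1), and 164 to 310 and 158 to 285 with a library left out; the cause was not tested. Ctgf and Cyr61 also lost their calls on the stromal scale (0.20 and 0.73), and Cyr61 with DESeq2 (1.21). Signs turned for genes that had not passed: on the stromal scale Ctnnb1 (-0.27), Wls (-0.39) and Ccnd1 (-0.076); with a library left out Ctnnb1 (-0.017 to 0.47), Wls (-0.13 to 0.26) and Tnks2 (-0.69 to 0.13); and relative to Lrp6, Wisp1 (-0.25). With the replicate number as a block, Tnks2 was at 0.044, 4 members were again higher and 229 genes higher and 212 lower. The labels tie libraries across the genotypes only by a number. Deviations of same-numbered libraries correlated at 0.00444 and 0.0443 over 1608 genes. With 2 wild type libraries, the values for unlike numbers are their mirror images (-0.00444 and -0.0443). They cannot show whether same-numbered libraries share a batch. Where 1 wild type library is left, it is assumed to vary like the others. Depth limits Sfrp2, Rspo3 and Lrp6, and no setting tests Axin2, which was not listed.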
